A study of Mus musculus with 19 samples.

Results

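Pdgfrb, Rgs5, Cspg4, Kcnj8, Abcc9, Acta2, Myh11, Tagln, Des and Notch3 mark pericytes and vascular smooth muscle cells, and their RNA was followed in the mouse cochlea. They are 10 of the 18639 genes in the deposited table, taken by gene symbol, and all 10 were found. The study sorted cochlear cells by green fluorescent protein (GFP) and sequenced their RNA in 19 libraries, to set macrophages against other cells and old against young animals. Every mouse was heterozygous for a GFP knock-in at the fractalkine receptor gene (CX3CR1 GFP/+), so GFP-positive cells are called macrophages and GFP-negative cells nonmacrophages. The whole cochlea gave 4 macrophage libraries from old mice (12 to 14 months), 2 macrophage libraries from young mice (1.5 months), 4 nonmacrophage libraries from old mice and 4 nonmacrophage libraries from young mice. Young mice also gave 1 macrophage and 1 nonmacrophage library from the auditory nerve, 1 of each from the lateral wall, and 1 library of unsorted cochlear cells. Per the labels, each cell isolate came from 1 mouse, and the mice were kept in low-noise rooms. The sort was on GFP alone, so the nonmacrophages are a mixture in which fewer cells of a type and less RNA per cell cannot be told apart.

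Pericytes wrap capillaries and smooth muscle cells wrap arterioles, and both are called mural cells. In the cochlea, pericytes line the capillaries of the stria vascularis and spiral ligament in the lateral wall, and the vessels of the auditory nerve. Mural cells are recruited by platelet-derived growth factor B from endothelium acting on PDGFRB, and NOTCH3 receives signals from endothelial ligands and maintains arterial smooth muscle. CSPG4, also called NG2, is a surface proteoglycan of pericytes and of oligodendrocyte precursors. RGS5 shortens G protein signalling in mural cells. KCNJ8 (Kir6.1) forms the pore, and ABCC9 (SUR2) the regulatory subunit, of the vascular ATP-sensitive potassium channel, which relaxes vessels when it opens. ACTA2 (smooth muscle actin), MYH11 (smooth muscle myosin heavy chain), TAGLN (transgelin) and DES (the intermediate filament protein desmin) belong to the contractile cytoskeleton.

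Values are the authors' normalized reads, which are read counts per gene divided by 1 factor for each library. The libraries held 20.63 to 71.56 M reads (M, 1e6), and 3 reads in a library were worth 1.38 to 5.33 normalized reads, the level below which a gene could go unseen. Depth and age nearly coincided: the 8 old libraries held 50.59 to 71.56 M reads, and the young sorted whole-cochlea libraries held 24.86 to 35.13 M except nonmacrophage replicate 14, at 60.23 M, and the unsorted library held 20.63 M. The young macrophage replicates 9 and 15 had reads in 11652 and 13532 genes, against 16750 to 17282 genes in old macrophages. All 12 macrophage markers were higher in macrophages at both ages. Of 10 neuronal markers, 8 were also higher in old macrophages than in old nonmacrophages, and 7 in young macrophages than in young nonmacrophages.

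Promoter sequence was looked at for Rgs5, Kcnj8 and Acta2, because the 3 genes were among those lower in old than in young macrophages. The letters are those before the RefSeq start of each gene on mouse build GRCm38.p6, 5′ to 3′ on the gene's own strand. The Rgs5 stretch lies at chr1:169655251-169655500 on the plus strand and the Kcnj8 stretch at chr6:142571615-142571864 on the minus strand, 250 bases each. For Acta2, 2 stretches of 30 bases on the minus strand are shown, at chr19:34255438-34255467 and chr19:34255388-34255417, with capitals for a match to the CArG box. The CArG box is the site of serum response factor, which drives contractile genes: CC, then 6 letters that are A or T, then GG. The capitals match it with 1 letter of the core off.
Rgs5: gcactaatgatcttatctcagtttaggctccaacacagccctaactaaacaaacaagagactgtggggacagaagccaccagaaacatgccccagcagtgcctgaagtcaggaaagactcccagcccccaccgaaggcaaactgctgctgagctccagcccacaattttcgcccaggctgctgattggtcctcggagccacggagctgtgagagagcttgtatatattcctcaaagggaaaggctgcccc
Kcnj8: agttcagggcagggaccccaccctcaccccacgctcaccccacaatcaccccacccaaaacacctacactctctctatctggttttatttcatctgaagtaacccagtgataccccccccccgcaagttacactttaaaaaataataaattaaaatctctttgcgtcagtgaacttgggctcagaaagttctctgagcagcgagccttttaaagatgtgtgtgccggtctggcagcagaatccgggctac
Acta2, farther stretch: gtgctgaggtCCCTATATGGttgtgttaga
Acta2, nearer stretch: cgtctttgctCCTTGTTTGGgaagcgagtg
RefSeq promoters were at hand for 7 of the 10 genes, all but Pdgfrb, Myh11 and Tagln. An exact CArG box, searched on both strands of the 250 bases, was in 0 of these 7 and in 1.47% of 32851 mouse promoters. With 1 core letter off, Acta2 alone of the 7 held it, at bases 84 to 75 and 34 to 25 before the start, against 8.59% of all promoters. Both stretches lie within an exon of an annotated Acta2 transcript in GENCODE M21. TGGGAA, searched as the letters read by the Notch partner RBPJ, was on either strand of the Abcc9 and Acta2 promoters and in 21.6% of all promoters, and in Acta2 it overlaps the nearer capitals. CATTCC, searched as the letters read by TEAD factors, was also on either strand of the Abcc9 and Acta2 promoters, against 12.6% of all promoters, and in Abcc9 it overlaps TGGGAA. A match of letters is a description, and binding was not tested.

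Levels were compared between genes per kilobase of exon. In old nonmacrophages Rgs5 had the highest mean level, 1528 ± 868 normalized reads per kilobase, followed by Acta2 at 1017 ± 1391, Pdgfrb at 797 ± 88.9 and Des at 759 ± 147 (SD, n = 4). These neighbours lay within each other's spread. Notch3 was lowest, at 42.3 ± 24.5, below Cspg4 at 59.1 ± 9.29, again within the spread. In young nonmacrophages Acta2 came first, at 6499 ± 5203 normalized reads per kilobase, then Rgs5 at 4925 ± 1295 and Tagln at 2160 ± 1460 (SD, n = 4), each overlapping its neighbour. The lowest there were Notch3 at 88.8 ± 33.1 and Cspg4 at 52.8 ± 11.3, which overlapped too. In old macrophages the order began with Rgs5 at 511 ± 204, Pdgfrb at 227 ± 60.2 and Kcnj8 at 73.9 ± 16.0 and ended with Myh11 at 7.89 ± 3.10 (SD, n = 4). The ranges of Rgs5 (281 to 758) and Pdgfrb (178 to 313) overlapped there. In the 2 young macrophage libraries Rgs5 held 1907 and 6830 normalized reads per kilobase, ahead of Acta2 at 673 and 1287 and Kcnj8 at 668 and 828.

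**Figure D1:**
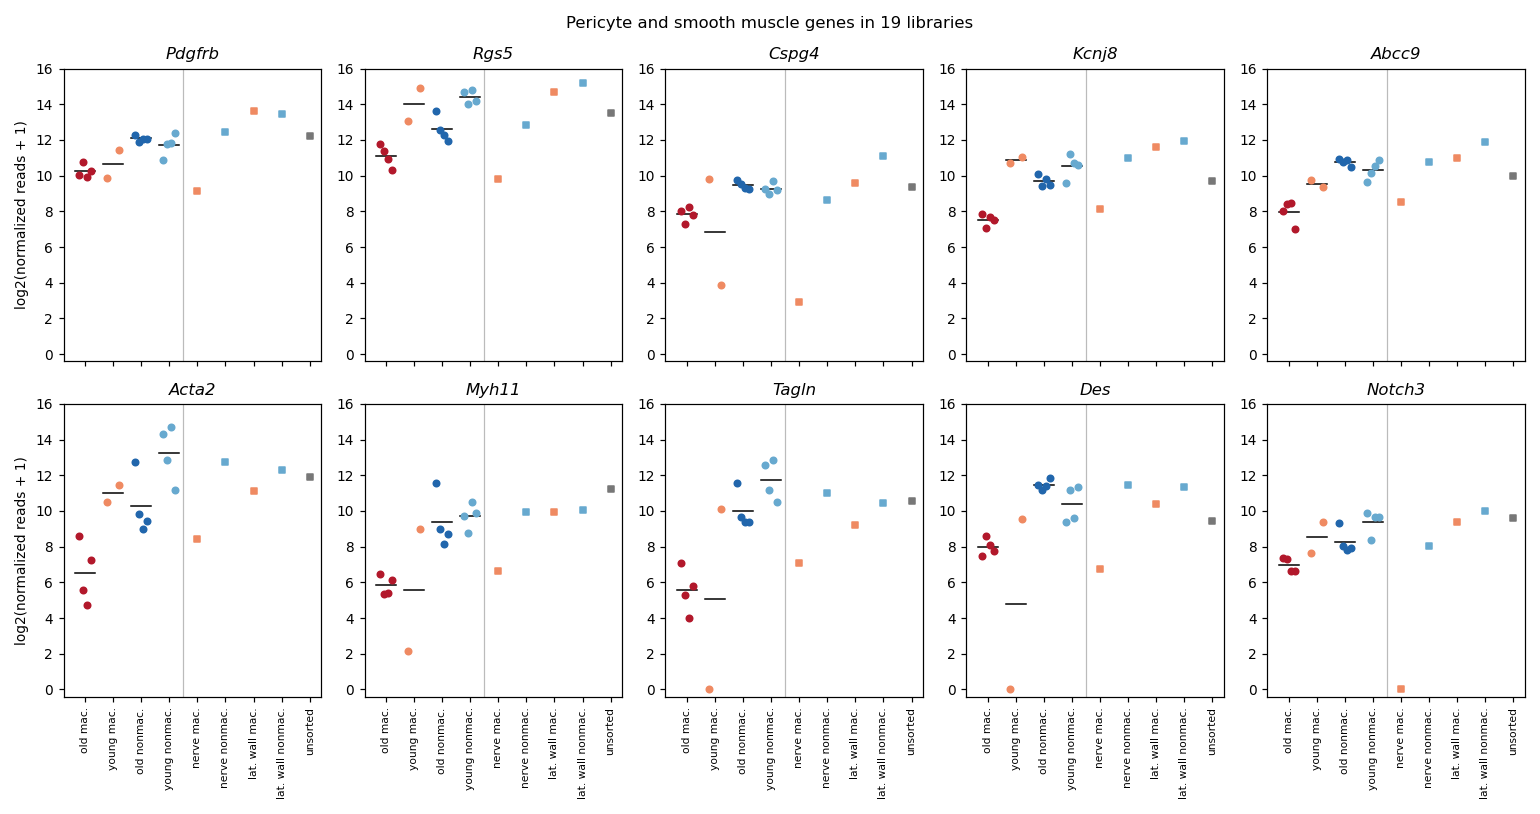
Log2(normalized reads + 1) of the 10 genes, 1 panel a gene and 1 point a library, with old macrophages, young macrophages, old nonmacrophages and young nonmacrophages of the whole cochlea left of the grey line and the 5 single young libraries right of it. Black bars are group means of the log2 values. In every panel the 4 old macrophage libraries lie below the 4 old nonmacrophage libraries, and the young macrophage pair is split by several log2 units for Cspg4, Myh11, Tagln and Des.

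In old cochlea, all 10 genes were lower in macrophages than in nonmacrophages in every library, and 5 of them passed the test: Abcc9, Kcnj8, Acta2, Pdgfrb and Rgs5. Across 18441 genes tested, 30.0% had ranges that did not overlap in this direction, and 9.36% were called lower (limma on log2(normalized reads + 1), adjusted p under 0.05). The median difference of the 10 genes was −2.47 on the log2 scale, against −0.19 over all genes tested.

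The channel subunit Abcc9 held 257, 341, 359 and 126 normalized reads in old macrophages, against 1960, 1732, 1887 and 1431 in old nonmacrophages. Every macrophage library was far below every nonmacrophage library, and the log2 difference was −2.79 ± 0.38 (SE, limma adjusted p = 0.00024). Its pore partner Kcnj8 held 230, 134, 206 and 183 normalized reads in old macrophages, against 1100, 685, 896 and 701 in old nonmacrophages. The groups were again separate, by a log2 difference of −2.16 ± 0.37 (SE, limma adjusted p = 0.0012). The PDGF receptor Pdgfrb held 1069, 1715, 974 and 1218 normalized reads in old macrophages, against 5022, 3847, 4261 and 4339 in old nonmacrophages. Its spread was small in both groups, and the log2 difference was −1.84 ± 0.36 (SE, limma adjusted p = 0.0032).

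Rgs5 and Acta2 passed with less room. Rgs5 held 3445, 2621, 1942 and 1277 normalized reads in old macrophages, against 12730, 6045, 4982 and 4022 in old nonmacrophages. The groups did not overlap, and the log2 difference was −1.53 ± 0.45 (SE, limma adjusted p = 0.031). Acta2 held 387, 46.3, 25.3 and 155 normalized reads in old macrophages, against 6808, 920, 512 and 691 in old nonmacrophages. One nonmacrophage library, replicate 10, stood far above the rest, and the log2 difference was −3.71 ± 1.01 (SE, limma adjusted p = 0.022). Without old nonmacrophage replicate 10 the differences were −1.19 for Rgs5 and −2.89 for Acta2, and neither was called (limma adjusted p = 0.098 and 0.069). Both calls were also lost without old macrophage replicate 7 (limma adjusted p = 0.052 for Rgs5 and 0.065 for Acta2) and without old macrophage replicate 12 (0.078 and 0.072). That of Rgs5 was lost as well without old macrophage replicate 17 (0.093) or old nonmacrophage replicate 11 (0.065), so the count of 5 went down to 3 at its lowest.

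The 5 genes that did not pass in this fit had differences of the same sign. Mean ± SD over 4 libraries for Tagln was 61.2 ± 53.2 in old macrophages, against 1302 ± 1193 in old nonmacrophages, with a log2 difference of −4.44 ± 1.59 (SE, limma adjusted p = 0.071). Myh11 averaged 59.9 ± 23.6 in old macrophages, against 1070 ± 1328 in old nonmacrophages, with a log2 difference of −3.52 ± 1.18 (SE, limma adjusted p = 0.054). Des averaged 264 ± 89.1 in old macrophages, against 2850 ± 553 in old nonmacrophages, with a log2 difference of −3.47 ± 1.41 (SE, limma adjusted p = 0.11). Cspg4 (−1.61 ± 0.90, limma adjusted p = 0.26) and Notch3 (−1.28 ± 0.55, limma adjusted p = 0.13) differed least. The fit takes 1 spread per gene from all 14 libraries, young macrophages included, whose values for Tagln, Myh11, Des and Cspg4 are split. Fitted on the 8 old libraries alone, all 10 genes were called lower, as were 33.4% of all genes (limma). On recovered whole reads edgeR called 8 of them (7.23% of all genes) and DESeq2 called 9 (12.7%).

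In young cochlea 3 of the 10 genes passed for the same contrast: Tagln, Des and Myh11, all lower in macrophages. Of all genes tested, 22.3% were called lower there and 9.18% higher (limma; 15.2% and 12.8% after quantile normalization), and the median difference was −1.68 for the 10 genes and −0.61 for all genes. These 3 calls rest on young macrophage replicate 9. Tagln held 0 normalized reads in young macrophage replicate 9, where 3 reads would be 5.27, and 1102 in replicate 15, against 6017, 2269, 7458 and 1433 in young nonmacrophages. Des held 0 in replicate 9 and 758 in replicate 15, against 660, 2318, 790 and 2631 in young nonmacrophages. Myh11 held 3.51 in replicate 9 and 516 in replicate 15, against 830, 443, 1446 and 936 in young nonmacrophages. Replicate 15 was inside the nonmacrophage range for Des and Myh11 and below it for Tagln, the 1 gene of the 10 with separate ranges (18.6% of all genes had them in this direction). Log2 differences were −6.71 ± 1.95 for Tagln, −5.60 ± 1.72 for Des and −4.12 ± 1.44 for Myh11 (SE, limma adjusted p = 0.020, 0.026 and 0.044). Without replicate 9 they were −1.66, −0.82 and −0.70, with none of the 3 called (limma adjusted p = 0.32, 0.42 and 0.67), while Cspg4 alone was (−5.42, limma adjusted p = 1.3e-06). The Myh11 call was also lost without any 1 of the 4 young nonmacrophage libraries (limma adjusted p = 0.052 to 0.083), and that of Des without replicate 5 or 14 of them (0.053 and 0.057). Neither edgeR nor DESeq2 called any of the 10, with 17.2% and 25.2% of all genes called lower.

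Kcnj8 and Rgs5 in young macrophages reached into the nonmacrophage range. Kcnj8 held 1703 and 2109 normalized reads in young macrophages, against 768, 2416, 1667 and 1535 in young nonmacrophages. Rgs5 held 8668 and 31049 in young macrophages, against 25812, 16349, 28812 and 18590 in young nonmacrophages. For both genes the ranges overlapped, with log2 differences of 0.36 ± 0.45 for Kcnj8 and −0.41 ± 0.55 for Rgs5 (SE, limma adjusted p = 0.58 and 0.60). Abcc9 (−0.75 ± 0.46, limma adjusted p = 0.23), Pdgfrb (−1.09 ± 0.44, 0.075), Acta2 (−2.26 ± 1.24, 0.18), Notch3 (−0.86 ± 0.67, 0.36) and Cspg4 (−2.43 ± 1.11, 0.11) did not pass. Cspg4 was the reverse of the contractile genes within the pair, at 918 normalized reads in replicate 9 and 13.5 in replicate 15. In the authors' deposited table for this contrast, Acta2 was the 1 gene of the 10 with an adjusted p under 0.05, at a fold change of −6.63 and an adjusted p of 0.0447, as were 37.2% of all genes.

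**Figure D2:**
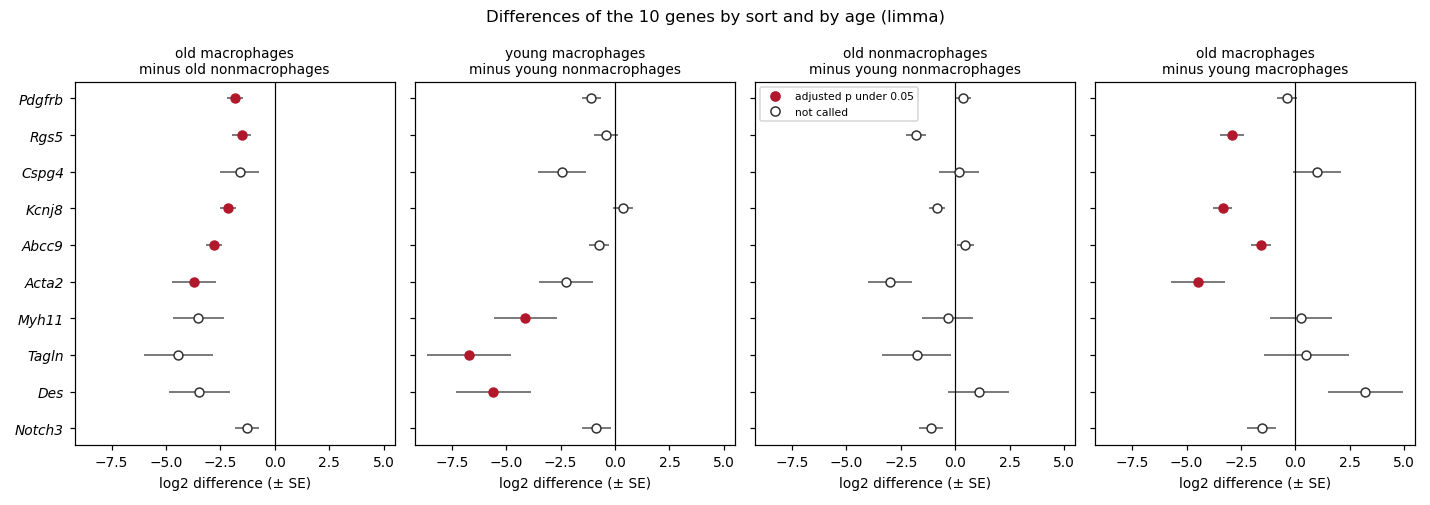
Log2 difference with its standard error for the 10 genes in 4 comparisons of the sorted whole-cochlea libraries (limma, 14 libraries), negative where the first group named is lower. Filled red points passed an adjusted p under 0.05 over 18441 genes: 5 genes in old macrophages minus old nonmacrophages, 3 in young macrophages minus young nonmacrophages, 0 in old nonmacrophages minus young nonmacrophages and 4 in old macrophages minus young macrophages.

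With age, 4 of the 10 genes were lower in macrophages: Kcnj8, Rgs5, Abcc9 and Acta2. Of all genes tested, 5.57% were called lower in old macrophages, 24.1% were called higher (12.3% and 12.4% after quantile normalization), and the median gene was 0.88 higher on the log2 scale (−0.07 after quantile normalization), against a median of −0.96 for the 10 genes. The Kcnj8 libraries given above run from 134 to 230 normalized reads in old macrophages, against 1703 and 2109 in young macrophages. The old values were about 1 order of magnitude lower, a log2 difference of −3.35 ± 0.45 (SE, limma adjusted p = 0.00013). Rgs5 ran from 1277 to 3445 in old macrophages, against 8668 and 31049 in young macrophages, a log2 difference of −2.91 ± 0.55 (SE, limma adjusted p = 0.0018). Acta2 ran from 25.3 to 387 in old macrophages, against 1478 and 2827 in young macrophages, a log2 difference of −4.46 ± 1.24 (SE, limma adjusted p = 0.018). Abcc9 ran from 126 to 359 in old macrophages, against 872 and 647 in young macrophages, a log2 difference of −1.58 ± 0.46 (SE, limma adjusted p = 0.022). The ranges of these 4 and of Notch3 (97.7 to 165 in old macrophages, 202 and 673 in young macrophages) did not overlap. That makes 5 of 10 genes, against 13.4% of all genes.

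The other 6 genes did not pass. Notch3 differed by −1.54 ± 0.67 (SE, limma adjusted p = 0.098) and Pdgfrb by −0.39 ± 0.44 (0.52), with Pdgfrb at 974 to 1715 normalized reads in old macrophages and 925 and 2726 in young macrophages. Des (3.21 ± 1.72), Cspg4 (0.98 ± 1.11), Tagln (0.50 ± 1.95) and Myh11 (0.25 ± 1.44) had positive differences here that turned negative in edgeR and DESeq2, and for all but Des after quantile normalization. Library quality weights gave the 2 young macrophage libraries a weight of 0.07 each and left 0 of the 10 genes called, with 0.0% of all genes called lower. Abcc9 was also not called with a common total of reads (limma adjusted p = 0.076) or with the 2 groups fitted alone (0.12). Without young macrophage replicate 9 Abcc9 was no longer called (limma adjusted p = 0.093), and without replicate 15 Acta2 was not (0.056). The count of called genes was 7 without replicate 9 and also 7 without replicate 15, but of different signs. Of all genes, 24.7% were called in either direction without replicate 9 and 46.1% without replicate 15, against 29.7% with both. Without replicate 9 Cspg4 was higher in old macrophages and Myh11, Tagln and Notch3 lower, and without replicate 15 Des, Tagln and Myh11 were higher and Cspg4 lower. In each of these fits 1 library stands for young macrophages and is taken to vary like the other groups. In the authors' deposited table, 5 of the 10 genes were called for old against young macrophages: Kcnj8 (fold change −10.1, adjusted p = 7.11e-14), Rgs5 (−8.56, 2.11e-06), Abcc9 (−2.80, 0.00351), Acta2 (−14.0, 0.00452) and Notch3 (−3.36, 0.0158). That table calls 31.1% of all genes in either direction.

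In nonmacrophages 0 of the 10 genes passed for age, as against 1.72% of all genes. At an unadjusted p under 0.05 there were 3 of the 10, Rgs5, Acta2 and Kcnj8, all lower in old nonmacrophages (limma). At that threshold 23.1% of all genes passed in either direction and 7.87% were lower. Rgs5 held 4022 to 12730 normalized reads in old nonmacrophages, against 16349 to 28812 in young nonmacrophages. The ranges did not overlap, as for 5.39% of all genes in this direction, and the log2 difference was −1.80 ± 0.45 (SE, limma adjusted p = 0.063). Acta2 held 512 to 6808 in old nonmacrophages, against 20571, 7289, 26921 and 2306 in young nonmacrophages, a log2 difference of −3.01 ± 1.01 (SE, limma adjusted p = 0.12). The young libraries themselves spanned more than 10-fold, and replicate 10 of the old group lay above the lowest of them. Kcnj8 differed by −0.83 ± 0.37 (SE, limma adjusted p = 0.20), at 685 to 1100 normalized reads in old nonmacrophages and 768 to 2416 in young nonmacrophages. Pdgfrb (0.36 ± 0.36, 0.57), Abcc9 (0.46 ± 0.38, 0.48), Cspg4 (0.17 ± 0.90, 0.93) and Des (1.07 ± 1.41, 0.68) had positive differences. Tagln (−1.77 ± 1.59, 0.53), Notch3 (−1.11 ± 0.55, 0.24) and Myh11 (−0.35 ± 1.18, 0.89) had negative ones. The median of all genes was 0.39 higher in old nonmacrophages (−0.03 after quantile normalization), and that of the 10 genes was −0.59.

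The call for Rgs5 in nonmacrophages moved with single libraries and with the test. It was called without old nonmacrophage replicate 10 (−2.14, limma adjusted p = 0.041) and without young nonmacrophage replicate 14 (−1.88, 0.024), the young library of highest depth. Acta2 was also called without replicate 14 (−3.70, limma adjusted p = 0.027). Leaving that library out raised the share of all genes called lower to 7.11%, against 0.0813% with it. DESeq2 called Rgs5 alone of the 10 (6.12% of all genes called lower). With edgeR none of the 10 was called, but it called 3 of 18441 genes in all and 0 of them lower. Replicate 14 held 18590 normalized reads of Rgs5, within the range of the shallower young libraries, and 2306 of Acta2, the lowest of the young group. Without replicate 14, every young nonmacrophage library left was shallower than every old one. In libraries over 40 M reads, replicate 14 alone stood for young nonmacrophages. The Acta2 difference was then −0.92, against −3.01 in the full fit. The Rgs5 difference stayed between −2.14 and −1.52 over 19 alternatives. Depth and age cannot be told apart here, since replicate 14 was the only young library over 40 M reads.

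The change with age was compared between the sorts as an interaction, old minus young in macrophages less old minus young in nonmacrophages. Kcnj8 was the 1 gene of the 10 that passed, with a log2 value of −2.52 ± 0.58 (SE, limma adjusted p = 0.015), against 0.954% of all genes called in this direction and 6.98% in the other (1.21% and 2.25% after quantile normalization). The Kcnj8 interaction stayed between −2.88 and −2.21 over 23 alternatives and was not called with library quality weights (adjusted p = 0.74). Abcc9 missed the threshold at −2.04 ± 0.59 (SE, limma adjusted p = 0.054) and was called without young nonmacrophage replicate 14 (0.033) or young macrophage replicate 15 (0.018), after quantile normalization (0.045), with a filter of 10 or a pseudocount of 0.1 (0.049 each), and by DESeq2 (0.0069). The other 8 genes had adjusted p values of 0.37 to 0.89. The count over the 10 genes was 3 without young macrophage replicate 9 and 6 without replicate 15, of either sign. Of all genes, 13.6% were called in either direction without replicate 9 and 29.1% without replicate 15, against 7.94% with both.

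Kcnj8 and Abcc9 lie next to each other on chromosome 6, on the same strand and 16248 bases apart (Kcnj8 at chr6:142564837-142571614 and Abcc9 at chr6:142587862-142702315, mm10). Their products sit in 1 channel, so their ratio was followed too. The ratio of Kcnj8 to Abcc9 normalized reads was 0.480 ± 0.068 in old nonmacrophages and 1.26 ± 0.595 in young nonmacrophages (SD, n = 4 each). No library of 1 group reached the other: old nonmacrophages ran from 0.396 to 0.562 and young nonmacrophages from 0.806 to 2.13. In macrophages the ratio was 0.394 to 1.45 in old libraries, against 1.95 and 3.26 in young libraries. A ratio of Rgs5 to Pdgfrb, both pericyte genes, ran from 0.927 to 2.53 in old nonmacrophages, against 3.46 to 13.7 in young nonmacrophages. In macrophages that ratio was 1.05 to 3.22 in old libraries, against 9.37 and 11.4 in young libraries. Acta2 to Rgs5, a smooth muscle gene over a pericyte gene, overlapped between the ages in nonmacrophages, at 0.103 to 0.535 in old and 0.124 to 0.934 in young libraries.

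These 3 ratios were chosen after the values of the genes had been seen. By the exact two-sided permutation test, Kcnj8 to Abcc9 and Rgs5 to Pdgfrb each gave p = 0.029 for age in nonmacrophages, the smallest that 4 against 4 libraries allow, and 0.087 after adjustment over 6 tests. In macrophages the exact test gave p = 0.13 for each (0.20 adjusted), the smallest that its two-sided form allows for 4 against 2 libraries. Acta2 to Rgs5 gave exact p values of 0.20 in nonmacrophages and 0.40 in macrophages. No ratio passed after adjustment.

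**Figure D3:**
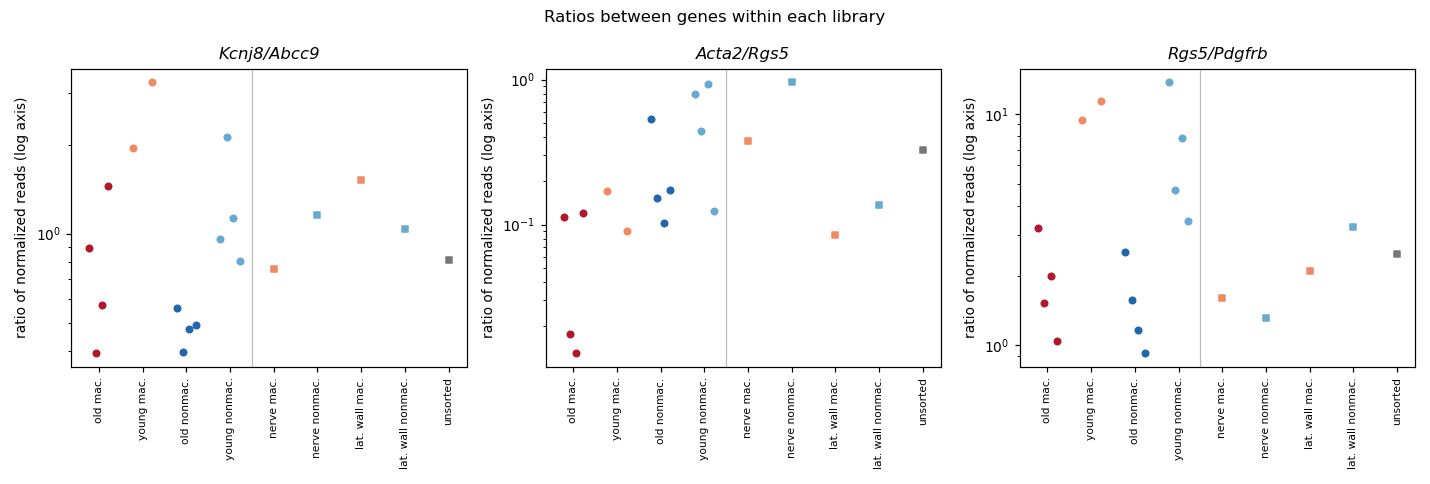
Ratio of the normalized reads of 2 genes within each library (log axis), with old macrophages, young macrophages, old nonmacrophages and young nonmacrophages left of the grey line and the 5 single young libraries right of it. For Kcnj8/Abcc9 and Rgs5/Pdgfrb the 4 old nonmacrophage libraries lie below all 4 young nonmacrophage libraries, at up to 0.562 against at least 0.806 and at up to 2.53 against at least 3.46.

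In the auditory nerve, all 10 genes were over 2-fold lower in the macrophage library than in the nonmacrophage library, as were 35.6% of all genes with reads in either. The median log2 ratio was −3.62 for the 10 genes and −0.22 for all genes. There is 1 library of each kind, so these ratios compare libraries and carry no test, and their 95% intervals (exact, on the recovered reads) cover counting error only. Acta2 held 349 normalized reads in nerve macrophages against 6938 in nerve nonmacrophages, a ratio of 0.0502 (0.0436 to 0.0577). Des held 106 against 2780 (ratio 0.0380, interval 0.0292 to 0.0488), and Cspg4 held 6.61 against 390 (0.0169, 0.00458 to 0.0438). Notch3 had 0 reads in nerve macrophages, where 3 reads would be 4.96 normalized reads, against 259 in nerve nonmacrophages. The channel subunits differed least, with Abcc9 at 367 against 1730 (0.212, 0.183 to 0.245) and Kcnj8 at 279 against 2007 (0.139, 0.118 to 0.163).

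The lateral wall, where strial pericytes sit, gave another picture. Pdgfrb held 12565 normalized reads in lateral wall macrophages against 11329 in lateral wall nonmacrophages, a ratio of 1.11 (1.07 to 1.14), and was the 1 gene of the 10 that was higher. Rgs5 held 26348 against 36863 (0.715, 0.701 to 0.729), Kcnj8 3127 against 3887 (0.805, 0.759 to 0.853) and Myh11 996 against 1049 (0.949, 0.851 to 1.06). Summed over the 10 genes, the macrophage library held 50688 normalized reads against 69157 in its nonmacrophage partner. Over 2-fold lower were 3 genes, Cspg4 (770 against 2190), Acta2 (2239 against 5022) and Tagln (597 against 1405), where 31.0% of all genes were, and the median log2 ratio was −0.75 for the 10 genes and −0.14 for all genes. Endothelial markers moved with them: their sum was 60424 normalized reads in lateral wall macrophages against 107135 in nonmacrophages, and 9698 in nerve macrophages against 90205 in nerve nonmacrophages. The part of carried-over RNA or cells in these values was not tested.

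Set against the lateral wall libraries, the auditory nerve libraries held less of the pericyte genes. Nerve macrophages were over 2-fold below lateral wall macrophages for all 10 genes (20.3% of all genes), from 0.00858 for Cspg4 (6.61 against 770) to 0.227 for Tagln (135 against 597) among the 9 with reads in both. Nerve nonmacrophages were over 2-fold below lateral wall nonmacrophages for 5 genes (17.0% of all genes): Pdgfrb, Rgs5, Cspg4, Abcc9 and Notch3. Rgs5 held 7215 normalized reads in nerve nonmacrophages against 36863 in lateral wall nonmacrophages (ratio 0.196, 0.190 to 0.202). The contractile genes did not follow. Acta2 was at 6938 against 5022 (1.38, 1.32 to 1.44), Tagln at 2067 against 1405 (1.47, 1.35 to 1.60), Des at 2780 against 2641 (1.05, 0.987 to 1.12) and Myh11 at 1003 against 1049 (0.956, 0.860 to 1.06). The ratio of Acta2 to Rgs5 was thus 0.962 in nerve nonmacrophages and 0.136 in lateral wall nonmacrophages.

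**Figure D4:**
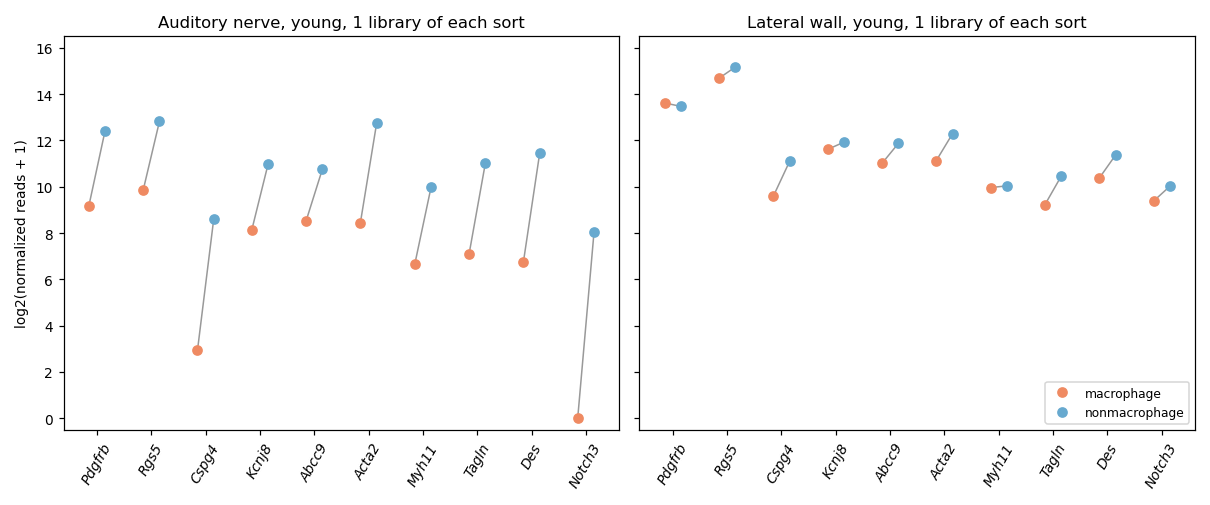
Log2(normalized reads + 1) of the 10 genes in the macrophage library (orange, left of each pair) and the nonmacrophage library (blue) of the auditory nerve and the lateral wall of young mice, 1 library each. In the nerve every macrophage point lies well below its partner, while in the lateral wall Pdgfrb is slightly higher in macrophages and Rgs5, Kcnj8 and Myh11 are close.

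In the 1 unsorted library of young cochlea, 8 of the 10 genes lay inside the range of the 4 young nonmacrophage libraries. The share of all genes inside that range was not worked out, so this count is a description only. Rgs5 was below that range, at 11648 normalized reads against 16349 to 28812 in young nonmacrophages. Myh11 was above it, at 2417 against 443 to 1446. Pdgfrb (4708), Abcc9 (1015), Kcnj8 (827), Acta2 (3826), Tagln (1497), Des (690), Cspg4 (653) and Notch3 (766) were inside.

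Other genes of the same pathways were read from lists by role. Of 20 other mural genes, 8 were lower in old macrophages than in old nonmacrophages and none higher, led by the transcription factor genes Foxf2 (−2.69 ± 0.30, limma adjusted p = 5.6e-05) and Foxc1 (−2.67 ± 0.55, 0.0043). In young macrophages 11 of the 20 were lower and none higher. Of all genes, 9.36% were called lower for sort in old cochlea and 22.3% in young cochlea. For age in macrophages the 20 genes split, with 4 lower and 3 higher, against 5.57% and 24.1% of all genes. Lower were the pericyte genes Higd1b (−4.05 ± 0.68, limma adjusted p = 0.00079) and Vtn (−3.14 ± 0.54, 0.001), and higher was Angpt1 (limma adjusted p = 2.4e-06), the angiopoietin that pericytes supply to endothelium. Angpt1 held 255 to 549 normalized reads in old macrophages, against 0 and 2.26 in young macrophages, which is less than 3 reads in each. Higd1b averaged 88.5 ± 13.5 normalized reads in old macrophages (SD, n = 4), against 1697 and 1277 in the young pair. None of the 20 passed for age in nonmacrophages, where Higd1b (−2.19 ± 0.56, limma adjusted p = 0.067) and Vtn (−1.64 ± 0.44, 0.079) were nearest.

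Of 19 other contractile genes in the table, 11 were lower in macrophages at each age and none higher. Of all genes, 9.36% were called lower in old and 22.3% in young cochlea. The smallest adjusted p values in old cochlea belonged to the myosin light chain Myl9 (−2.56 ± 0.30, limma adjusted p = 0.0001) and to caldesmon, Cald1 (−2.49 ± 0.31, 0.00013). None of the 19 passed for age in nonmacrophages. In macrophages 3 were lower (5.57% of all genes), Myl9 first (−2.76 ± 0.37, limma adjusted p = 0.00015), and 2 higher (24.1%), Itga8 and Smtn. Itga8 and Smtn were each at 0 in 1 of the 2 young macrophage libraries. Skeletal muscle markers, which could lend desmin, summed to 135 to 171 normalized reads in old macrophages, 176 to 442 in young macrophages, 298 to 411 in old nonmacrophages and 474 to 1088 in young nonmacrophages. Smooth muscle gamma actin, Actg2, was low too, at up to 1.92 normalized reads in whole-cochlea macrophages of either age and at 1.78 to 106 in whole-cochlea nonmacrophages, with 159 in nerve nonmacrophages, 48.9 in lateral wall nonmacrophages and 30.6 in the unsorted library. The skeletal actin gene Acta1 stayed at or under 37.5 normalized reads in all 19 libraries, and Actc1 was not analysed here.

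For the receptors, the ligands were read beside them. Of 5 other PDGF genes, 1 was lower in old macrophages than in old nonmacrophages, the fibroblast receptor Pdgfra (−3.84 ± 0.27, limma adjusted p = 3.1e-06). Pdgfra, Pdgfc and Pdgfa were lower in young macrophages than in young nonmacrophages, as were 22.3% of all genes. The same 3 were higher in old than in young macrophages, as were 24.1% of all genes (limma). The endothelial ligand Pdgfb did not pass for sort in old (0.94 ± 0.41, limma adjusted p = 0.13) or young cochlea (0.54 ± 0.50, 0.44). For age in nonmacrophages Pdgfb differed by −1.60 ± 0.41 (SE, limma adjusted p = 0.067), at 370 ± 137 normalized reads in old and 1194 ± 615 in young libraries (SD, n = 4 each). Of 13 other Notch genes, none passed for sort in old cochlea or for age in nonmacrophages. In young cochlea 5 of the 13 were lower in macrophages, against 22.3% of all genes. Higher in old than in young macrophages were 4 of the 13, against 24.1% of all genes, Hey2 first (3.11 ± 0.80, limma adjusted p = 0.011). The other KATP subunit genes, Kcnj11 and Abcc8, were not in step with Kcnj8 and Abcc9. Abcc8, the SUR1 subunit, held 355, 519, 335 and 239 normalized reads in old macrophages, against 39.4, 35.8, 22.2 and 11.5 in old nonmacrophages. It was higher in old macrophages for sort (3.77 ± 0.68, limma adjusted p = 0.0019). It had 0 reads in both young macrophage libraries and in 3 of the 4 young nonmacrophage libraries, but was at 111 normalized reads in nerve macrophages, with fewer in nerve nonmacrophages, and at 671 in the unsorted library. The unsorted value was the highest of all 19 libraries. Abcc8 was higher in old than in young nonmacrophages (4.12 ± 0.68, limma adjusted p = 0.0078). Kcnj11, the pore partner of SUR1, held 71.2 to 194 normalized reads in old macrophages and 1683 and 4.52 in young macrophages, and did not pass for sort in old cochlea (3.16 ± 1.64, limma adjusted p = 0.22). Of 14 vasoactive receptor and related genes, 4 were higher and 2 lower in old macrophages than in old nonmacrophages. Of the 18441 genes tested, 1705 were higher and 1726 lower. The endothelin receptor gene Ednrb was among the lower ones (−1.60 ± 0.26, limma adjusted p = 0.00093).

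The summed level of endothelial markers, like that of the mural genes, was lowest in old macrophages among the 4 whole-cochlea sorted groups, while that of fibroblast markers was not. The 14 endothelial markers summed to 7882 to 11443 normalized reads in old macrophages, 29543 to 53673 in young macrophages, 50713 to 77194 in old nonmacrophages and 91465 to 128665 in young nonmacrophages, with no marker at 0 throughout any of these 4 groups. Of the 14, 7 were lower for sort in old cochlea (9.36% of all genes) and 5 for sort in young cochlea (22.3%). For age, 6 were lower in macrophages (5.57%) and 0 in nonmacrophages (0.0813%, limma). The 10 mural genes summed to 3617 to 6218 in old macrophages, 14769 to 42420 in young macrophages, 16734 to 38080 in old nonmacrophages and 36093 to 73880 in young nonmacrophages. In both sums old macrophages lay below each of the other 3 groups. The 12 macrophage markers summed to 194684 to 323051 in old macrophages, 829813 to 1002468 in young macrophages, 1245 to 2733 in old nonmacrophages and 620 to 3537 in young nonmacrophages, so old macrophages lay below young macrophages in these too. For age in macrophages 2 of the 12 were lower and none higher (limma). In fibroblast and matrix markers they did not, with sums of 8990 to 13502 in old macrophages, 7068 to 12473 in young macrophages, 84140 to 101543 in old nonmacrophages and 96804 to 185271 in young nonmacrophages. For age in macrophages 6 of these 12 were higher and none lower (limma), and Col1a1, Fbn1, Col6a1 and Mfap5 were at 0 in both young macrophage libraries. Neuronal markers summed to 258901 to 332857 in old macrophages, 146415 to 246442 in young macrophages, 8857 to 14945 in old nonmacrophages and 5587 to 31777 in young nonmacrophages. Oligodendrocyte lineage markers, which matter for Cspg4, were lower in macrophages for all 9 genes at each age, and Schwann cell markers for 5 of 8 in old and 8 of 8 in young cochlea. Strial intermediate cell markers were lower in macrophages for 2 of 8 in old and 6 of 8 in young cochlea. With age in macrophages 4 of the mural genes were lower. Higher there were 7 of 8 Schwann cell, 4 of 9 oligodendrocyte lineage, 2 of 8 strial and 2 of 10 neuronal markers, and none was lower (limma). Of all genes, 24.1% were called higher in that contrast, and the strial and neuronal counts lay near that share. The part of macrophage, endothelial, fibroblast, glial, strial or neuronal RNA in the results for the 10 genes was not tested.

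**Figure D5:**
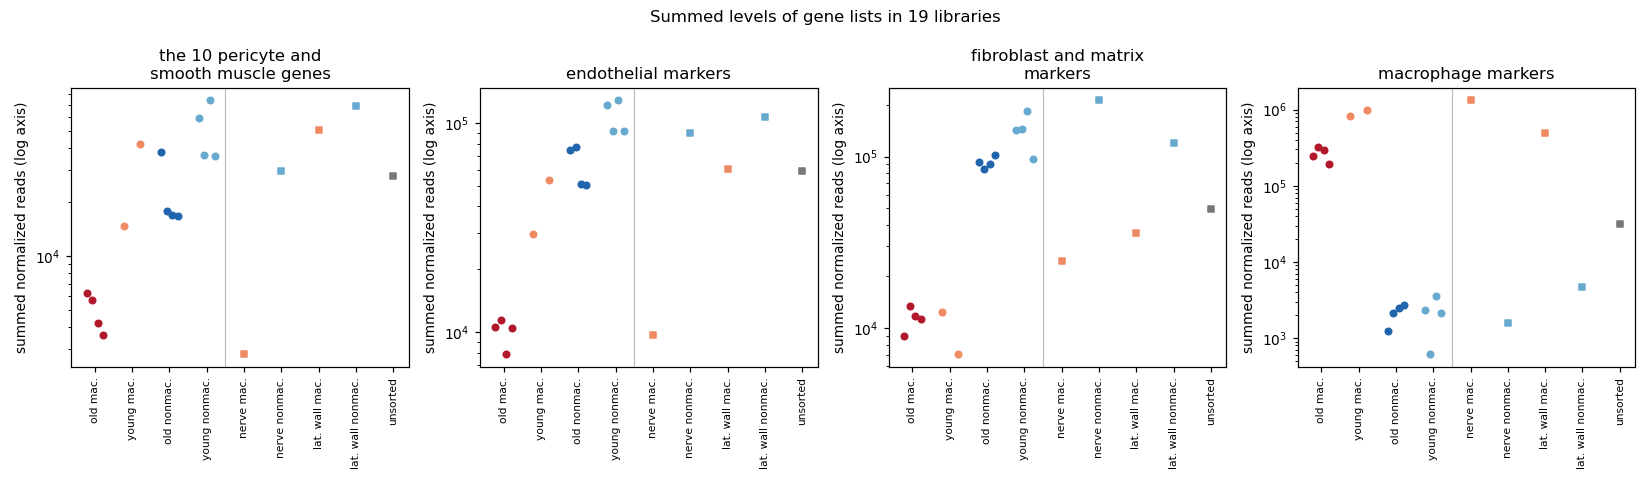
Summed normalized reads (log axis) of the 10 pericyte and smooth muscle genes, 14 endothelial, 12 fibroblast and matrix and 12 macrophage markers in each of the 19 libraries, with whole-cochlea groups left of the grey line. In the first 2 panels old macrophages lie below the other whole-cochlea groups, while the fibroblast sums of old and young macrophages lie together at 7068 to 13502.

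Old nonmacrophage replicate 10 stood apart in smooth muscle genes and in the pericyte gene Rgs5. Acta2 held 6808 normalized reads there, against 512 to 920 in the other 3 old nonmacrophage libraries. Myh11 held 3056 there against 286 to 516, Tagln 3089 against 660 to 795 and Notch3 638 against 221 to 265. All but Des were highest of the group in replicate 10, but with smaller gaps for Pdgfrb (5022 against 3847 to 4339), Abcc9 (1960 against 1431 to 1887) and Cspg4 (851 against 615 to 731), while Des was at 2825, inside the range of the others. Its endothelial sum was within the range of the group. Among young nonmacrophages, replicates 2 and 6 were highest in Acta2 (20571 and 26921) and Tagln (6017 and 7458) and lowest in Des (660 and 790).

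The genes most like the 10 over the 19 libraries were Cd248, Adgrl4, Rasl12, Flt1 and Aoc3, with Pearson correlations of 0.95, 0.95, 0.95, 0.94 and 0.93 between their log2 values and the mean of the 10 standardized genes. These are descriptions over libraries that differ in sort, age, depth and tissue. Cd248 (endosialin) is a pericyte and fibroblast gene, and Adgrl4 and Flt1 are endothelial genes. Among the 10 themselves, Pdgfrb was closest to the mean of the other 9 (0.88), then Rgs5 and Abcc9 (0.82 each). Cspg4 (0.50) and Des (0.59) were farthest.

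Reads of some of the genes can be shared. Tagln lies at chr9:45929619-45936058 (mm10), and its exons overlap those of Pcsk7 on the opposite strand, so that 48.3% of its 50-base stretches also occur in other annotated transcripts. The strand used in counting is not stated in the sources used here, so Tagln and Pcsk7 reads may be mixed. Pcsk7 held 664 ± 132 normalized reads in old macrophages, against 858 ± 88.5 in old nonmacrophages (mean ± SD of 4), a log2 difference of −0.38 ± 1.53 (SE, limma adjusted p = 0.91). In young macrophages Pcsk7 was at 0 in replicate 9 and 1477 in replicate 15, the same split as Tagln with 0 and 1102, against 274 to 1069 in young nonmacrophages. Its sort difference there was −3.75 ± 1.88 (SE, limma adjusted p = 0.15). The share was 5.81% for Des, 5.01% for Notch3, 2.21% for Abcc9, 0.40% for Myh11 and 0.352% for Acta2, whose shared stretches include those of the abundant actin gene Actg1. Actg1 held 33316 ± 2003 normalized reads in old macrophages, against 39662 ± 1567 in old nonmacrophages, and Actb 50648 ± 6104 in old macrophages, against 45249 ± 707 in old nonmacrophages (mean ± SD of 4). Actb (−1.84 ± 0.32, limma adjusted p = 0.001) and Actg1 (−1.51 ± 0.23, 0.00033) were both lower in old than in young macrophages, the direction of Acta2. The other 4 genes shared none.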

How the data were processed

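RNA of sorted cochlear cells was sequenced in 19 libraries. Per the labels' protocols, RNA was purified with the RNeasy Micro kit, low-quality preparations were left out, libraries were made with SMARTer Ultra and Nextera XT, and some samples were sequenced a second time. The submitters' processing notes name TopHat2, Partek, DESeq2 and the mouse build mm10, with no versions. The strand used in counting is not stated in the sources used here.

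The authors deposited 1 table of normalized reads, a signal that per the file headers is scaled by library, for 18639 genes and 19 libraries. Dividing by the value of 1 read gave whole reads within 0.1 for 100.0% of values under 10000 reads and 99.89% of all values above 0. The authors also deposited a fold change (used as a signed score), a p-value and an adjusted p for 2 comparisons, quoted here only as theirs.

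The 10 genes and the gene lists were chosen with earlier results of these data known. Genes at 1 or more in at least 2 of 14 sorted whole-cochlea libraries (18441 genes, all 10 included) were tested on log2(value + 1) with limma 3.58.1 (R 4.3.3), trend and robust, 1 fit over 4 groups, Benjamini-Hochberg threshold 0.05. The fold changes understate changes of low genes. The 5 single libraries were compared with no test. edgeR 4.0.16 and DESeq2 1.42.0 on recovered whole reads were alternatives, since the table holds no counts as deposited. The script was tested on simulated data. Every list gives counts in each direction and at most 3 genes, those of smallest adjusted p, with the actin paralogs and KATP subunits named in any case. The genes most alike are the 5 of highest Pearson correlation among 14250 with a mean of at least 20. Python 3.11.15 with pandas 2.3.3, numpy 2.4.6 and scipy 1.17.1 gave ratios, exact tests and intervals. Exon lengths and positions come from GENCODE M21, and promoters from RefSeq on GRCm38.p6. Every pair of replicates differed by more than counting error (a chi-square of at least 48.7 for each degree of freedom). Depths were 20.63 to 71.56 M (1e6) reads.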

Additional observations from a re-analysis of the deposited data

Results flagged for a closer look

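In old nonmacrophages, 1 library stood far from the other 3 for 4 of the 10 genes, and it was replicate 10 each time. Acta2 was at 6808 normalized reads there, Myh11 at 3056, Tagln at 3089 and Notch3 at 638. The gap to the nearest other library passed Dixon's 95% critical value for 4 libraries. It was taken on normalized reads, and the flags were not worked out on the log2 scale of the tests. These were 4 of 30 groups of 4 libraries examined, and chance flags about 1 in 20 groups if values are normally distributed. All 4 flags come from the same library and are not independent of each other.

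The change of Kcnj8 with age differed between macrophages and nonmacrophages, by −2.52 ± 0.58 on the log2 scale in the interaction term (SE, limma adjusted p = 0.015). Old macrophages differed from young macrophages by −3.35, and old nonmacrophages differed from young nonmacrophages by −0.83. The young macrophages were 2 libraries.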

How the results depend on the processing

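Over 50 differences (10 genes, 5 comparisons) and 930 recomputed values, 792 kept their direction and their side of the threshold, 40 lost the call, 53 gained it and 45 changed sign. For sort in old cochlea, in place of 5 genes (9.36% of all genes called lower), 9 were called after quantile normalization (12.9%), 10 with library quality weights (34.8%), 8 with a pseudocount of 10 (11.1%), 10 with the 2 groups fitted alone (33.4%), 8 by edgeR (7.23%), 9 by DESeq2 (12.7%) and 10 with libraries over 40 M reads (33.4%), and 3 to 5 with 1 library left out (6.2% to 7.27%). Pdgfrb, Kcnj8 and Abcc9 were called in all 19 of these settings. For sort in young cochlea, in place of 3 genes (22.3% of all genes called lower), 0 were called with quality weights (2.94%), with the 2 groups alone (6.6%), by edgeR (17.2%) and by DESeq2 (25.2%), and 1 to 4 with 1 library left out (17.7% to 30.0%). For age in nonmacrophages, in place of 0 (0.0813% of all genes called lower), DESeq2 called 1 (6.12%). Leaving out 1 library gave 0 to 2, with 3 to 1306 of all genes called lower. For age in macrophages, in place of 4 (5.57% of all genes called lower), quantile normalization gave 6 (12.3%) and DESeq2 gave 5 (1936 of 18441 genes). Quality weights gave 0 (0.0%). A common total of reads gave 3 (3.3%) and the 2 groups alone gave 3 (1067 of 17206 genes), with the Abcc9 call lost in both. Leaving out 1 library gave 4 to 7, and the 7 came from fits with 1 young macrophage library. The interaction, in place of 1 (7.94% of all genes called in either direction), gave 2 after quantile normalization (3.46%), 2 with a filter of 10 (8.94%), 2 with a pseudocount of 0.1 (8.35%), 2 by DESeq2 (16.1%), 0 with quality weights (0.803%), and 1 to 6 with 1 library left out (6.07% to 29.1%). The cause was not tested.

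Sign changes were as follows. For age in macrophages, quantile normalization gave −0.66 for Cspg4, −3.41 for Myh11 and −1.82 for Tagln, a pseudocount of 10 gave −0.33 for Myh11 and −0.86 for Tagln, edgeR gave −0.91 for Cspg4, −2.10 for Myh11, −3.15 for Tagln and −0.49 for Des, and DESeq2 gave −1.01, −2.17, −3.22 and −0.57 for the same genes. In the interaction, quantile normalization gave −0.63 for Cspg4, −2.76 for Myh11 and −0.01 for Tagln, edgeR −1.06 for Cspg4, −2.30 for Myh11, −1.41 for Tagln and −1.31 for Des, and DESeq2 −1.16, −2.38, −1.49 and −1.39. For age in nonmacrophages, Cspg4 was −0.03 after quantile normalization, Myh11 0.21 by edgeR and 0.22 by DESeq2, and in libraries over 40 M reads Abcc9 was −0.13 and Pdgfrb −0.31. With 1 library left out, age in macrophages ran from −4.56 to 5.55 for Tagln, −3.17 to 3.68 for Myh11, −1.58 to 7.99 for Des, −2.01 to 3.97 for Cspg4 and −1.17 to 0.39 for Pdgfrb. The interaction ran from −2.82 to 4.02 for Myh11, −2.65 to 6.92 for Des, −2.78 to 7.32 for Tagln, −2.18 to 3.80 for Cspg4, −1.30 to 0.44 for Notch3 and −1.53 to 0.03 for Pdgfrb. Sort in young cochlea ran from −1.33 to 0.51 for Rgs5, −1.72 to 0.01 for Notch3 and −5.42 to 0.57 for Cspg4, and age in nonmacrophages from −1.08 to 0.06 for Myh11.

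No paired analysis was run. Replicate numbers run through the whole series and each is used once, so they do not show which libraries came from the same mouse. Any pairing of macrophage and nonmacrophage libraries is thus unknown here, and the sort comparisons take no account of it. The comparison of libraries over 40 M reads was not run where young macrophages enter, since both lie under that depth. With 2 young macrophage libraries that differ in 4 of the 10 genes by several log2 units, their comparisons limit what can be read for Cspg4, Myh11, Tagln and Des.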
